A study of Mus musculus with 8 samples.

Results

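The m6A writers and erasers measured here were the 10 genes Mettl3, Mettl14, Mettl16, Wtap, Virma, Zc3h13, Rbm15, Cbll1, Fto and Alkbh5. They were taken by gene symbol from a liver RNA sequencing table of 54532 genes, and each symbol was found in 1 row. All 10 reached the minimum for testing, 0.1 FPKM on average over the 8 livers, as did 16645 genes in all. FPKM are fragments scaled to gene length and to a library size. That size was not the plain total of reads. The deposited values already set the typical gene equal between livers, with a median-of-ratios factor of 1.006 in every liver.

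The livers came from C57BL/6 mice, 4 labelled METTL3-HKD and 4 labelled METTL3-Flox, and every liver had undergone 1 h of partial warm ischemia, with the left and middle portal branches clamped, and 6 h of reperfusion. Which lobes were sampled is not given in the sources used here. METTL3-HKD mice had the genotype METTL3 flox/- with Alb-iCre, a recombinase driven by the albumin promoter. The authors describe the knockdown as hepatocyte-specific, and recombination in other cells of the liver was not measured here. METTL3-HKD mice were heterozygotes, used because the homozygous knockout died young. Whether their second allele was wild type or null is not spelled out in the sources used here. METTL3-Flox mice (METTL3 flox/flox) were littermates with the loxP sites around exon 4 and served as controls. No liver without ischemia was among the 8, and the age of these mice is not given in the sources used here. Each library held 15861245 to 18434488 reads on genes, as rebuilt from the deposited values.

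N6-methyladenosine (m6A) is the most abundant internal modification of mRNA. A methyltransferase complex, the writer, adds the methyl group, which comes from S-adenosylmethionine, and the dioxygenases FTO and ALKBH5, the erasers, remove it. Reader proteins bind the modified sites and change splicing, translation or decay of the transcript. METTL3 is the catalytic subunit of the writer and METTL14 its partner that helps to hold the RNA, while WTAP, VIRMA, ZC3H13, RBM15 and CBLL1 (also called HAKAI) place the pair in nuclear speckles and on its targets. METTL16 is a separate methyltransferase that acts on U6 RNA and on hairpins of the Mat2a mRNA.

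Of the 10 genes, Mettl16 was higher in METTL3-HKD livers at an adjusted p under 0.05, 0 were lower, and 0 differed by a log2 fold change of at least 1. Over all 16645 genes tested, 9.05% were called higher and 6.63% lower (15.7% in all) by the same limma test with Benjamini-Hochberg adjustment, so 1 of 10 was near the background. With the fold threshold added, 6.22% of all genes were called. The mean of 7 members was higher in METTL3-HKD livers and that of 3 was lower, and the median log2 fold change was 0.15 beside -0.00 over all genes. The unadjusted p was under 0.05 for 3 of 10 members (30%) and for 31.9% of all genes tested.

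**Figure D1:**
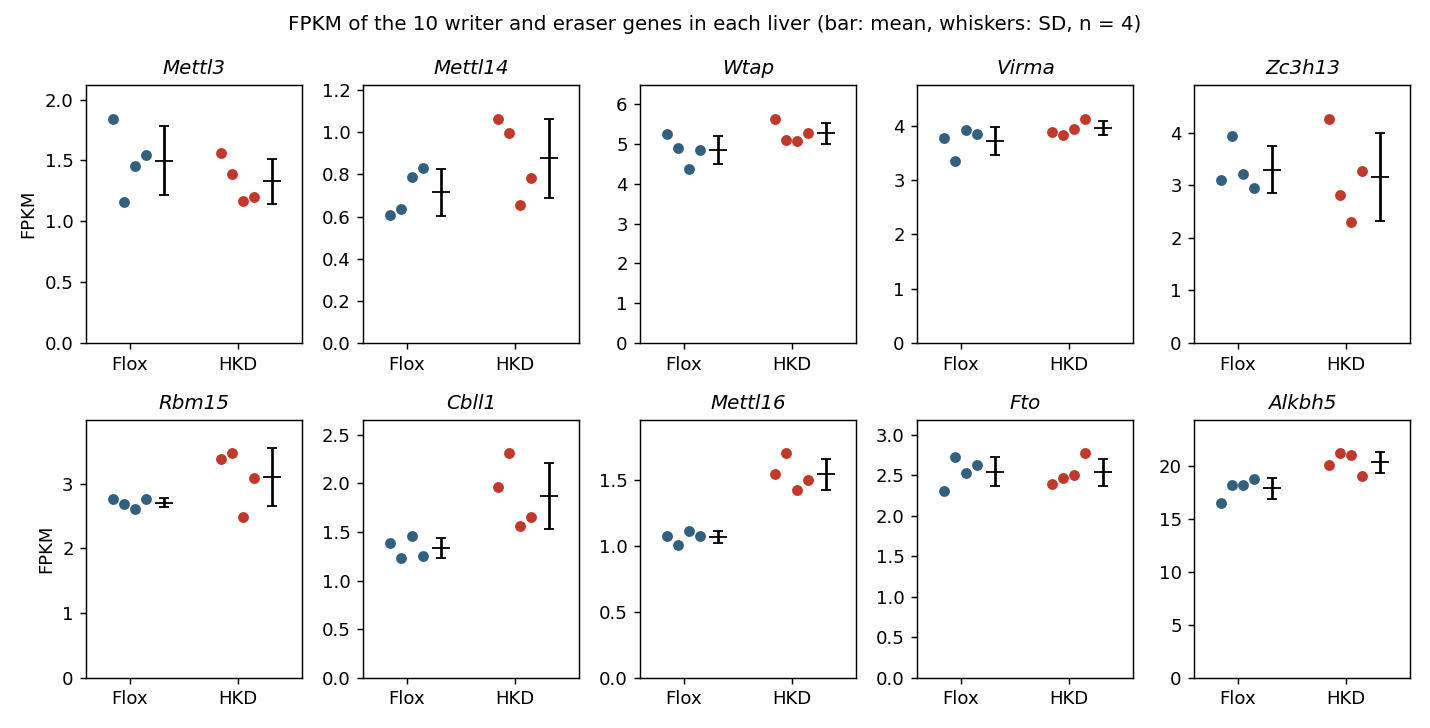
FPKM of each of the 10 genes in each liver, 1 panel per gene, each vertical axis starting at 0; points are the 4 METTL3-HKD and the 4 METTL3-Flox livers and the horizontal lines are group means with SD. The points of Mettl16, Cbll1 and Alkbh5 do not overlap between the groups, and those of the other 7 genes do.

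Mettl3 was examined first because it is the targeted gene. It is listed as ENSMUSG00000022160 and lies on the minus strand of GRCm38 at chr14:52294841-52305128. The floxed exon 4 spans chr14:52298640-52298815 in the transcript Mettl3-201, which has 11 exons and 580 codons. The exon is shown whole because it is the part between the loxP sites, 5′ to 3′ on the coding strand, in lower case throughout.

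Mettl3 exon 4: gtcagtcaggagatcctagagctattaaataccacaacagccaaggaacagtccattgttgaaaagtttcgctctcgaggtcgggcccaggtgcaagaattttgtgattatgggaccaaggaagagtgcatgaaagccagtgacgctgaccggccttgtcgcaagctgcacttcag

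This exon holds 176 bases, which leaves a remainder of 2 on division by 3, and 241 codons precede it. In the annotated sequence, joining exon 3 to exon 5 gives a frame of 245 codons before its first stop. The catalytic motif of METTL3, the residues DPPW, is encoded by codons 395 to 398 in exon 6 and so lies beyond that stop. The matching residues are EPPL in METTL14 (codons 192 to 195 of 456), whose pocket is known to be inactive, and NPPF in METTL16 (codons 184 to 187 of 593). The coding windows below, each of 60 bases within 1 exon, place these 3 methyltransferases side by side, with the 12 bases that encode the motif in capitals. They lie at chr14:52297557-52297616 (minus strand), chr3:123374781-123374840 (minus strand) and chr11:74792259-74792318 (plus strand) of GRCm38.

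Mettl3: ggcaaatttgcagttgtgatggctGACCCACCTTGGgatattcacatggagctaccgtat
Mettl14: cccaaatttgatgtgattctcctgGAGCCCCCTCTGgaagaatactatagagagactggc
Mettl16: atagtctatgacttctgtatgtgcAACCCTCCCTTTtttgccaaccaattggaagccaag

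**Figure D2:**
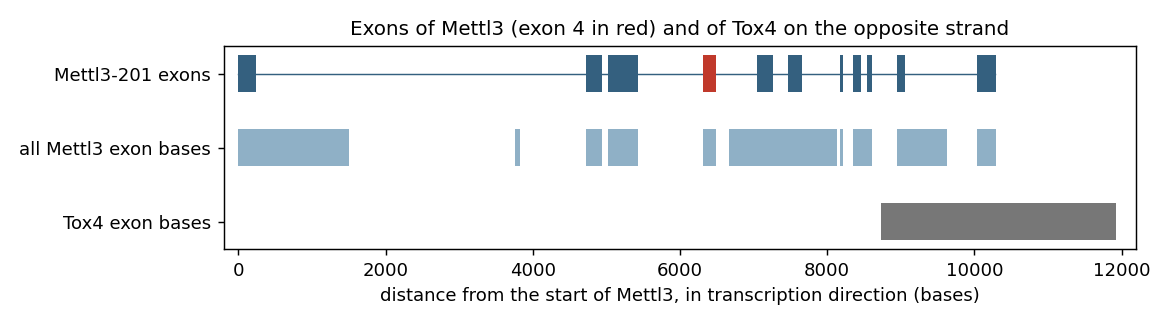
Exons of Mettl3-201 and all annotated Mettl3 exons together, with the exons of the neighbouring Tox4 gene, against distance in bases from the Mettl3 start. Exon 4 is a small part of the gene's exon length, and Tox4 exon sequence on the opposite strand overlaps the 3′ end of Mettl3.

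In METTL3-HKD livers 1 to 4, Mettl3 measured 1.56, 1.39, 1.17 and 1.198 FPKM. The METTL3-Flox livers, in the same order, had 1.84, 1.16, 1.45 and 1.54 FPKM. The groups overlapped, and the lowest of the 8 values was that of METTL3-Flox liver 2. Mean levels were 1.33 ± 0.181 FPKM (SD, n = 4) and 1.499 ± 0.282 FPKM (SD, n = 4). The log2 fold change was -0.16 with a 95% interval of -0.53 to 0.22, which in linear terms spans 0.693 to 1.16 (limma, adjusted p = 0.556), and the two-sided exact permutation p was 0.371. These values could therefore not show a difference in liver Mettl3 mRNA at this precision. Without METTL3-Flox liver 1 the log2 fold change was -0.06, and without METTL3-Flox liver 2 it was -0.26 (limma, adjusted p = 0.837 and 0.311).

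The gene-level value cannot check the deletion itself. The authors report that METTL3 loss in the liver was established separately, from its expression in the main organs of METTL3-HKD mice. Exon 4 makes up 3.47% of the 5076 bases over which Mettl3 was measured, so reads from an mRNA that lacks it still count toward the gene. Those bases join the exons of all 15 annotated transcripts, 4 of them coding, so exon 4 is a larger share of Mettl3-201 alone. With exactly these boundaries, exon 4 is part of 4 of the 15 transcripts. A change in hepatocytes and a change in how many cells of a type the liver held cannot be told apart in RNA of bulk liver tissue, nor can fewer cells of a type and less RNA per cell. Tox4, on the opposite strand, shares 933 exon bases with Mettl3 (18.4% of the measured length of Mettl3). It was listed at 6.85, 6.85, 6.68 and 5.74 FPKM in METTL3-HKD livers and 5.65, 5.35, 5.70 and 6.00 FPKM in METTL3-Flox livers. Whether reads were assigned by strand is not given in the sources used here, and the part of Tox4 reads in the Mettl3 value was not tested. Mettl3 rested on 107 to 159 reads in METTL3-HKD livers and 95 to 133 in METTL3-Flox livers. Its variation between livers, a coefficient of variation of 13.7% and 18.8%, was above the 8.86% and 9.26% that counting alone gives.

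Mettl14 (ENSMUSG00000028114, chr3:123368297-123386108) was the lowest of the 10 genes. Its level in METTL3-HKD livers 1 to 4 was 1.07, 0.999, 0.657 and 0.783 FPKM, and METTL3-Flox livers had 0.607, 0.634, 0.789 and 0.8289 FPKM. METTL3-HKD livers 1 and 2 were the highest, and the other two fell within the METTL3-Flox values. The log2 fold change was 0.25 with a 95% interval of -0.18 to 0.68 (limma, adjusted p = 0.404).

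Because METTL3 and METTL14 act as a pair, their ratio was taken within each liver, which does not depend on how libraries were scaled. Mettl3 over Mettl14 was 1.46, 1.39, 1.78 and 1.53 in METTL3-HKD livers and 3.04, 1.83, 1.84 and 1.86 in METTL3-Flox livers. Every METTL3-HKD ratio was below every METTL3-Flox ratio, and METTL3-Flox liver 1, where Mettl3 was highest and Mettl14 lowest, stood far above the others. Geometric means were 1.53 and 2.09, a log2 difference of -0.45 (exact permutation p = 0.0286, the smallest that 4 against 4 livers allow, and 0.0857 after Benjamini-Hochberg adjustment over the 3 ratios computed). Without METTL3-Flox liver 1 the log2 difference was -0.27 (exact permutation p = 0.0571, the smallest that 3 against 4 livers allow).

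**Figure D3:**
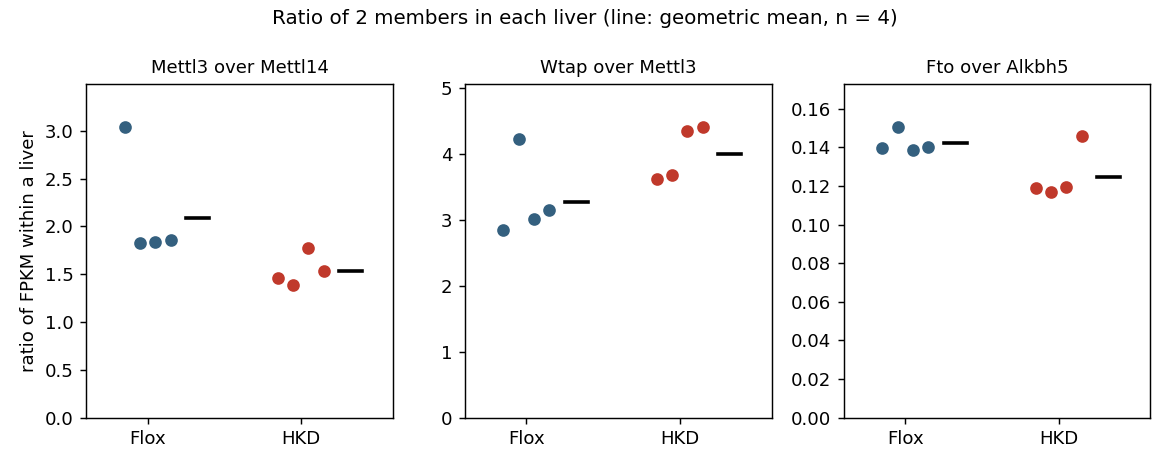
Ratios of FPKM within each liver for Mettl3 over Mettl14, Wtap over Mettl3 and Fto over Alkbh5; points are livers and lines are geometric means. The Mettl3 over Mettl14 ratio of METTL3-Flox liver 1, 3.04, lies apart from the other 7 livers, which span 1.39 to 1.86.

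Wtap, the scaffold that recruits the catalytic pair (ENSMUSG00000060475, chr17:12966796-12994169), was the highest of the writer genes. METTL3-HKD livers had 5.64, 5.09, 5.08 and 5.28 FPKM and METTL3-Flox livers 5.25, 4.90, 4.38 and 4.85 FPKM. The groups overlapped through METTL3-Flox liver 1, and the log2 fold change was 0.12 with SE 0.0914 (limma, adjusted p = 0.398). Relative to Mettl3, Wtap stood at 3.62, 3.67, 4.35 and 4.41 in METTL3-HKD livers and at 2.85, 4.23, 3.02 and 3.15 in METTL3-Flox livers. This ratio overlapped between the groups, with a log2 difference of 0.29 (exact permutation p = 0.114, Benjamini-Hochberg adjusted 0.114).

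Virma, a large scaffold of the complex (ENSMUSG00000040720, chr4:11485958-11550684), varied least among livers of the METTL3-HKD group. Its levels were 3.89, 3.84, 3.94 and 4.13 FPKM against 3.77, 3.35, 3.92 and 3.86 FPKM in METTL3-Flox livers. The ranges overlapped, and the log2 fold change was 0.09 with SE 0.0913 (limma, adjusted p = 0.558).

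Zc3h13, a zinc finger protein that keeps the complex in the nucleus (ENSMUSG00000022000, chr14:75284373-75344426), varied most in METTL3-HKD livers. It ran at 4.26, 2.81, 2.30 and 3.27 FPKM there and at 3.09, 3.94, 3.21 and 2.94 FPKM in METTL3-Flox livers. The highest and the lowest of its 8 values both came from METTL3-HKD livers, 1 and 3. The coefficient of variation was 26.5% in METTL3-HKD livers, where counting alone gives 5.15%. Its log2 fold change of -0.08 had a 95% interval of -0.50 to 0.33 (limma, adjusted p = 0.791).

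Rbm15, an RNA-binding protein that guides the complex to its targets (ENSMUSG00000048109, chr3:107325421-107333673), had 3.38, 3.47, 2.48 and 3.10 FPKM in METTL3-HKD livers. In METTL3-Flox livers it had 2.77, 2.69, 2.61 and 2.76 FPKM, a narrow range. METTL3-HKD liver 3 was below all METTL3-Flox livers and the other 3 were above them. The log2 fold change was 0.18 with SE 0.122 (limma, adjusted p = 0.344).

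Cbll1, a RING finger protein that binds the complex (ENSMUSG00000020659, chr12:31484829-31499616), had 1.96, 2.31, 1.56 and 1.65 FPKM in METTL3-HKD livers and 1.39, 1.24, 1.46 and 1.26 FPKM in METTL3-Flox livers. Every METTL3-HKD value was above every METTL3-Flox value, by 0.1002 FPKM at the closest. Non-overlap in this direction held for 12.7% of all genes tested and for 3 of the 10 members, Cbll1, Mettl16 and Alkbh5, and in the other direction for 9.95% and 0 members (22.6% of all genes in either direction). The Cbll1 log2 fold change was 0.45 with a 95% interval of 0.11 to 0.78 (limma, adjusted p = 0.0715), which missed the threshold. It passed when libraries were scaled to their reads on genes (log2 fold change 0.65, limma, adjusted p = 0.0454). An antisense gene, Gm29542, shares 704 exon bases with Cbll1 and was listed at 0 FPKM in all 8 livers.

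Mettl16 (ENSMUSG00000010554, chr11:74770830-74828525) was the member that passed the test. It measured 1.55, 1.70, 1.42 and 1.499 FPKM in METTL3-HKD livers and 1.07, 1.01, 1.11 and 1.07 FPKM in METTL3-Flox livers. The groups were separated by 0.308 FPKM, and neither held a value far from its others. Mean levels were 1.54 ± 0.119 and 1.07 ± 0.0441 FPKM (SD, n = 4 each), a log2 fold change of 0.49 with SE 0.117 and a 95% interval of 0.23 to 0.75 (limma, adjusted p = 0.0260). This corresponds to a fold of 1.41, and the exact permutation p was 0.0286. The values rested on 355 to 435 reads in METTL3-HKD and 211 to 239 reads in METTL3-Flox livers.

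The Mettl16 call stood close to its threshold. Over 19 alternative analyses, of which 1 (median-of-ratios scaling) nearly repeats the main fit, the log2 fold change stayed between 0.30 and 0.69. The limma adjusted p ran from 0.0116 to 0.0847, with 11 past the threshold, that repeat included. It was not past it with a block for the replicate number (limma, adjusted p = 0.0847), with no minimum level (limma, adjusted p = 0.0548), or when METTL3-HKD liver 1, 2 or 4 or METTL3-Flox liver 2, 3 or 4 was left out (limma, adjusted p = 0.0543 to 0.0731). Mat2a, whose mRNA METTL16 methylates, had 20.3 ± 2.38 FPKM in METTL3-HKD and 16.6 ± 3.39 FPKM in METTL3-Flox livers (SD, n = 4 each), a log2 fold change of 0.30 (limma, adjusted p = 0.202), and was named here after its values were seen.

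**Figure D4:**
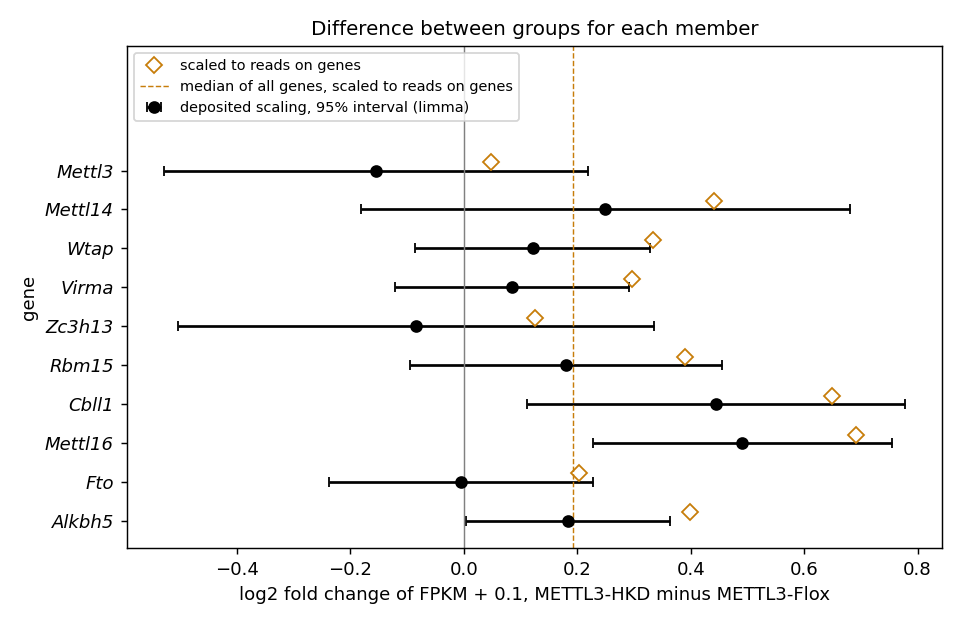
Log2 fold change of each of the 10 genes, METTL3-HKD over METTL3-Flox, on the log2(FPKM + 0.1) scale; black points with bars are the deposited scaling with 95% limma intervals, open diamonds the scaling to reads on genes, and the dashed line the median of all genes on that scaling (0.19). The unadjusted intervals of Mettl16 (0.23 to 0.75), Cbll1 (0.11 to 0.78) and Alkbh5 (0.00 to 0.36) lie above 0, the last just so, and that of Mettl3 spans it.

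Among the erasers, Fto (ENSMUSG00000055932, chr8:91313525-91668439), an m6A demethylase of the AlkB family, had the fold change closest to 0 of all members. It had 2.39, 2.47, 2.51 and 2.77 FPKM in METTL3-HKD livers and 2.30, 2.73, 2.52 and 2.63 FPKM in METTL3-Flox livers. The groups overlapped over nearly their whole range. The log2 fold change was -0.01 with a 95% interval of -0.24 to 0.23 (limma, adjusted p = 0.980). Gm45427 and 4831440D22Rik on the opposite strand share 304 and 144 exon bases with Fto and were listed at 0 FPKM in all livers.

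Alkbh5 (ENSMUSG00000042650, chr11:60536381-60558512), the nuclear m6A demethylase, was by far the highest of the 10 genes. It had 20.1, 21.1, 21.0 and 19.0 FPKM in METTL3-HKD livers and 16.4, 18.1, 18.2 and 18.7 FPKM in METTL3-Flox livers. The groups did not overlap, but METTL3-HKD liver 4 and METTL3-Flox liver 4 were only 0.264 FPKM apart. With 20.3 ± 1.00 and 17.9 ± 0.983 FPKM (SD, n = 4 each), the log2 fold change was 0.18 with SE 0.0796 and a 95% interval of 0.00 to 0.36, which missed the threshold (limma, adjusted p = 0.149). It was the best counted member, with 1399 to 2420 reads per liver.

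The balance of the erasers was compared as Fto over Alkbh5 within each liver. The ratio was 0.119, 0.117, 0.119 and 0.146 in METTL3-HKD livers and 0.140, 0.150, 0.139 and 0.140 in METTL3-Flox livers. METTL3-HKD livers 1 to 3 lay below all METTL3-Flox livers, and METTL3-HKD liver 4 lay among them. The log2 difference was -0.19 (exact permutation p = 0.114, Benjamini-Hochberg adjusted 0.114). Alkbh5 supplied 86.9% to 89.6% of the summed FPKM of the erasers in every liver. This share depends on the lengths used, all annotated exon bases of a gene, which were 13031 for Fto and 5987 for Alkbh5.

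Across the 8 livers, mean levels per gene length fell in the order Alkbh5 (19.1 FPKM), Wtap (5.06), Virma (3.83), Zc3h13 (3.23), Rbm15 (2.91), Fto (2.54), Cbll1 (1.603), Mettl3 (1.41), Mettl16 (1.31) and Mettl14 (0.795). The ranges of Alkbh5 and Wtap, and those of Wtap and Virma, did not overlap. From Virma to Fto, each gene was above the next in 6 of 8 livers, so these neighbours were not separated beyond their spread. Fto was above Cbll1 and Mettl16 above Mettl14 in 8 of 8 livers, whereas Mettl3 was above Mettl16 in 5 of 8. Among all genes tested, Alkbh5 stood at the 88.0 percentile of mean level, Mettl3 at 41.7 and Mettl14 at 32.1. Summed over the 8 writer genes, FPKM lay between 0.792 and 1.06 times that of the erasers, with overlapping groups. Both the order and this sum depend on the lengths used, all annotated exon bases of a gene, from 4007 (Cbll1) to 13817 (Mettl16).

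Reads on genes were 0.857 (METTL3-HKD liver 1) to 1.19 (METTL3-Flox liver 1) times the library size behind the deposited FPKM. Rescaling the libraries to their reads on genes moved the median of all genes, as log2 fold change, from -0.00 to 0.19, so directions near 0 depended on it. On that scale Mettl3 was at 0.05, Fto at 0.20 and Zc3h13 at 0.13, each of them on the other side of 0 from the deposited scale. Set against the median of all genes on each scale, Mettl3 was -0.15 on both, Mettl16 0.49 and 0.50, and Cbll1 0.45 and 0.46. This near equality follows from the rescaling itself, which shifts all genes alike apart from the added 0.1 FPKM, and is no separate check. Calls over all genes were 57.7% higher on the deposited scale and 86.1% higher after this rescaling.

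The genes whose pattern over the 8 livers was most like that of Mettl3 were not other writers. Among 10693 genes averaging at least 1 FPKM, the mean absolute difference of centred log2 levels from Mettl3 was smallest for Cdc37 (0.0614), B3gat3 (0.0639), Rabac1 (0.0654), Psmb6 (0.0723) and Sin3b (0.0743). Of the members, Virma was nearest at rank 1173 (0.167), Wtap followed at rank 2034 (0.191), and Mettl16 was the most distant at rank 7198 (0.323). Mettl14 was under 1 FPKM and was not ranked. Counting error of Mettl3 itself (8.86% and 9.26% in the 2 groups, on 95 to 159 reads) enters every difference. The ranking, least of all among the nearest genes, therefore cannot be read as shared regulation.

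Promoter windows from RefSeq (GRCm38.p6, 250 bases before to 50 after the start) matched 8 of the 10 members, all but Mettl14 and Virma. On either strand, the GC box GGGCGG was in 5 of 8, Alkbh5, Cbll1, Rbm15, Wtap and Zc3h13, and in 35.7% of all 32851 windows. The letters CCAAT were in 4 of 8, Alkbh5, Mettl16, Rbm15 and Wtap, and in 37.4% of all windows. TATAAA was in 0 of 8 and in 13.6% of all windows. A gene counted if any of its windows matched (11 windows for the 8 genes), whereas the percentages are over single windows, so their units differ. These matches only describe the letters of the windows.

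The other genes of the pathway are given beside the 15.7% of all genes called in either direction, a share at which small lists can hold 0 calls. Of 13 reader genes, 11 were tested and 0 were called in either direction, with a median log2 fold change of 0.16. The most abundant were the nuclear RNA-binding proteins Hnrnpa2b1, with 48.5 ± 1.73 and 45.6 ± 3.54 FPKM (SD, n = 4 each), and Hnrnpc, with 22.5 ± 1.61 and 18.7 ± 2.20 FPKM. Hnrnpc did not overlap between the groups (log2 fold change 0.27, limma, adjusted p = 0.117). Igf2bp1 was listed at 0 in all livers.

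Among 6 other RNA adenosine methyltransferase genes and partners, 0 were called and the median log2 fold change was 0.07. Rbm15b, the paralog of Rbm15, had 5.08 ± 0.197 and 4.08 ± 0.727 FPKM (SD, n = 4 each; log2 fold change 0.32, limma, adjusted p = 0.130). Trmt112, a partner of several methyltransferases, had 19.0 and 18.0 FPKM. In the related AlkB dioxygenase family, 0 of 7 were called. Alkbh7, the mitochondrial member, had 6.24 and 8.78 FPKM (limma, adjusted p = 0.0543) and was called lower in 5 of 19 alternatives (limma, adjusted p from 0.0290 to 0.206), and Alkbh2, a DNA repair enzyme, had 4.72 and 4.49 FPKM.

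The list of 9 S-adenosylmethionine genes, named for the methyl donor, also holds S-adenosylhomocysteine hydrolase (Ahcy) and its relatives Ahcyl1 and Ahcyl2. The median log2 fold change of the 9 was -0.27, with 0 called higher and 1 lower, beside 6.63% of all genes called lower. The hepatocyte markers described below had a median of -0.39, with 1 of 8 called lower and overlapping sums. A relation between these lists was not tested. The called gene was Ahcyl1, a relative of S-adenosylhomocysteine hydrolase known for binding the IP3 receptor. It had 13.0, 12.9, 14.7 and 13.9 FPKM in METTL3-HKD and 15.4, 17.003, 17.8 and 17.5 FPKM in METTL3-Flox livers, without overlap. Its log2 fold change was -0.31 with SE 0.0845 (limma, adjusted p = 0.0399). It was called in 10 of 19 alternatives, among them the median-of-ratios scaling that nearly repeats the main fit. The 9 that lost the call were the fit with no mean-variance trend, the block for the replicate number, the rescaling to reads on genes, where the log2 fold change was -0.10, and the omission of METTL3-HKD liver 1, 2 or 4 or METTL3-Flox liver 2, 3 or 4.

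Mat1a, the liver form of methionine adenosyltransferase, had 1081 ± 348 and 1284 ± 201 FPKM (SD, n = 4 each; limma, adjusted p = 0.449). Gnmt, which uses up S-adenosylmethionine in hepatocytes, had 628 ± 183 and 798 ± 222 FPKM (limma, adjusted p = 0.388). Mat2b and Pemt, named after their values were seen, also did not overlap between the groups and were lower in METTL3-HKD livers, at 6.13 against 7.43 FPKM and 83.9 against 128 FPKM, but missed the threshold (limma, adjusted p = 0.0911 and 0.0589). Non-overlap in this direction thus held for 3 of the 9 genes, beside 9.95% of all genes tested. For Mat2b, METTL3-Flox liver 4 stood apart at 8.52 FPKM, against 6.99 to 7.17 FPKM in the other METTL3-Flox livers.

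**Figure D5:**
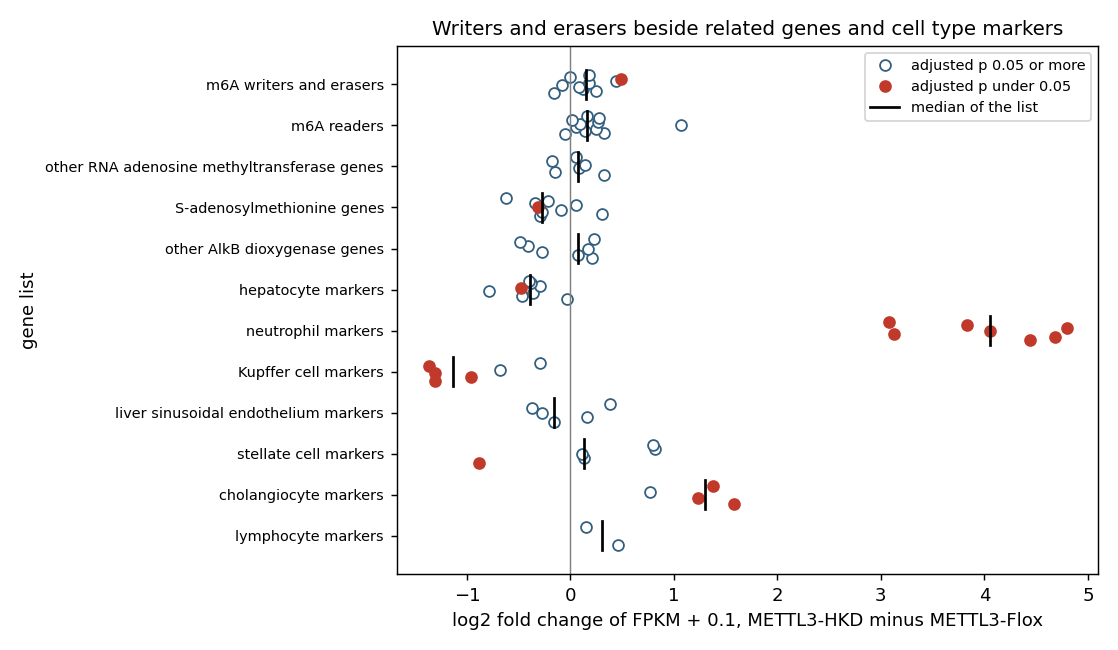
Log2 fold change, METTL3-HKD over METTL3-Flox, of every tested gene in the member list, the lists of related genes and the cell type marker lists; 1 point per gene, filled where the adjusted p was under 0.05, with the list median as a line. The median of the members is 0.15 and that of the S-adenosylmethionine genes -0.27, while all 7 neutrophil markers lie far to the right.

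Markers of several cell types differed between the groups. The median log2 fold change of 8 hepatocyte markers was -0.39, and all 8 were below 0, from -0.03 for Alb to -0.79 for Cps1. Summed hepatocyte markers overlapped, at 22594 to 32946.6 FPKM in METTL3-HKD and 29174.7 to 33537.6 FPKM in METTL3-Flox livers, mostly from Alb, with 1 of 8 called lower (Hnf4a, -0.48) and none of the 8 at 0, so hepatocyte RNA was present in every liver. All 7 neutrophil markers were called higher, and their sum was 330 to 1614 FPKM against 12.8 to 44.2 FPKM. Of 6 Kupffer cell markers 4 were called lower, and their sum was 62.6 to 139.7 FPKM against 140.4 to 346.6 FPKM. Of 4 cholangiocyte markers 3 were called higher, with sums of 7.79 to 13.9 and 3.19 to 6.10 FPKM. Endothelial and stellate cell sums overlapped, with 0 of 5 and 1 of 5 called (Lrat, lower), and lymphocyte sums of 0.212 to 0.999 and 0.267 to 0.491 FPKM overlapped, with 0 of 2 tested called. None of the markers was at 0 in all livers. The part of these differences in the values of Mettl16, Cbll1, Alkbh5 and the S-adenosylmethionine genes was not tested.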

How the data were processed

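Liver RNA of 4 METTL3-HKD and 4 METTL3-Flox mice was sequenced from SMARTer mRNA-Seq libraries, and groups followed the sample labels. The authors deposited FPKM and gene lengths for 54532 genes. Submitters' processing notes name GRCm38 and mm10, and the aligner, counter and strand setting are not given in the sources used here. Multiplied by length and an effective library size, 100% of non-zero FPKM gave whole reads within 0.05 of a read. Gene lengths of the 10 members equalled their GENCODE M21 exon unions, and coding sequences came from that annotation's transcripts.

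Log2(FPKM + 0.1) of the 16645 genes averaging 0.1 FPKM or more was compared with limma 3.58.1 (lmFit, eBayes with trend) in R 4.3.3, two-sided, with Benjamini-Hochberg adjustment over all of them. Fold changes on this scale understate those of low genes. Permutation tests enumerated all 70 arrangements of the livers (scipy 1.17.1, Python 3.11.15). Intervals from reads cover counting error only. The fit was tested on simulated data with the same variability setting for every gene and with larger changes than those of the members. That test therefore does not cover calls on changes as small as theirs.

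Members and lists were chosen with earlier results of these data known. Named genes were all members, related-list genes past the threshold, the 2 most abundant others of each list, the 5 most like Mettl3, and genes sharing exon bases with a member. Protein sequences were not used here.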

Additional observations from a re-analysis of the deposited data

Results flagged for a closer look

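Of 48 sets of 4 livers tested with Dixon's criterion, which covered 10 members, 11 related genes and 3 ratios in each group, 4 held a liver far from the other 3. Chance gives about 1 in 20. The Mettl3 over Mettl14 ratio of METTL3-Flox liver 1 was 3.04, with the others between 1.83 and 1.86. The Fto over Alkbh5 ratio of METTL3-HKD liver 4 was 0.146, with the others between 0.117 and 0.119. In METTL3-Flox livers the same ratio was 0.150 in liver 2, with the others between 0.139 and 0.140. Mat2b in METTL3-Flox liver 4 was 8.52 FPKM, with the others between 6.99 and 7.17 FPKM.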

How the results depend on the processing

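Limma fold changes of the members and call counts of all genes and related lists were recomputed under 19 alternatives, of which 8 each left out 1 liver. Mettl14, under 1 FPKM, had 18. The ratios were recomputed only with 0.1 FPKM added to both genes and with each of the 8 omissions. Median-of-ratios scaling, 1 of the 19, nearly repeats the main fit, so its agreement adds nothing. Every member but Mettl3, Fto and Zc3h13 kept the direction of its log2 fold change in all its alternatives. The scaling to reads on genes turned Mettl3 (0.0474), Fto (0.2026) and Zc3h13 (0.1255). Leaving out 1 liver gave -0.2649 to -0.0558 for Mettl3, -0.0507 to 0.0278 for Fto, and -0.2362 to 0.0515 for Zc3h13. The number of members called higher was 0 with no minimum level, 0 with the replicate block, 2 after scaling to reads on genes (Mettl16 and Cbll1), and 0 to 1 when 1 liver was left out.

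Over all genes, 971 were called higher with the replicate block, 2310 after scaling to reads on genes, and 747 to 1659 without 1 liver. Genes called lower numbered 682 with no minimum level, 645 with the replicate block, 374 after scaling to reads on genes, and 355 to 1148 without 1 liver. The lowest counts in both directions came without METTL3-Flox liver 3, and counts fell by more than 1.5 times without METTL3-HKD liver 1 or 2 or METTL3-Flox liver 2, 3 or 4. The log2 difference of the Mettl3 over Mettl14 ratio was -0.5176 to -0.2659 without 1 liver, where no smaller exact permutation p than 0.0571 is possible. The S-adenosylmethionine genes called lower numbered 0 to 2, the readers called higher 0 to 2, the other AlkB genes called lower 0 to 1, and the other methyltransferase genes called higher 0 to 1. The cause of these changes was not tested.

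Same-numbered livers of the groups did not deviate together (4 pairs, correlations of deviations -0.0838 to 0.0711, 1 of 4 closest to its own number), so the numbers were not taken to pair the livers. Mettl3, Mettl14 and Cbll1 rested on 64 to 171 reads per liver, which limits their precision.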
